A study of Mus musculus with 14 samples.

Results

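The collagen genes of the mouse were described by the H3K27me3 sites that were called over them in fibroblasts. Members were all autosomal protein-coding genes with a symbol of the form Col, a number, a and a number in the GENCODE annotation of GRCm38. This rule found 42 of 20807 autosomal protein-coding genes. The measurements came from H3K27me3 ChIP-seq of immortalised mouse embryo fibroblasts (iMEF), in which exon 4 of the endogenous Ash2l genes was deleted and a lentiviral, FKBP-tagged human ASH2L (FKBP-HA2-ASH2L) took the place of the endogenous protein. The cells, including the controls, were a single clone (NG3) obtained by limiting dilution. The 12 H3K27me3 libraries comprised 2 each of control cells without dTAG and of cells with dTAG-13, which leads to degradation of the tagged protein, for 30 min or for 2 h, 4 h, 8 h or 16 h. The remaining 2 libraries were input chromatin, without dTAG and after 16 h of dTAG. A single list of 153983 sites covers all samples together and holds no value per library, hence neither replicate error nor a comparison of treated with control cells can be given. The values below describe positions with a site in at least some of the samples, and no test was run. The read depth behind a site is not given, and a gene without a site may still carry the mark.

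Collagens are triple-helical proteins of the extracellular matrix. Fibrillar collagens form the cables of connective tissue, whereas network-forming collagens build basement membranes and fibril-associated collagens decorate the cables. Fibroblasts are known to secrete types I, III and V, chondrocytes to secrete types II, IX, X and XI, and keratinocytes to make types VII and XVII at the border of epidermis and dermis. H3K27me3 is placed by Polycomb repressive complex 2 (PRC2) and is a mark of genes that are silent in a given lineage, frequently at CpG-rich promoters. The members were ordered by these roles, and the fibrillar collagens of fibroblasts were set beside those of cartilage, skin and basement membrane.

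The DNA directly upstream of the outermost transcription start of a collagen gene shows what the sites cover. The 5 stretches below (GRCm38, 5′ to 3′ on the strand of the gene, CpG dinucleotides in capitals) were chosen because they represent the contrasted classes, namely a pair of fibroblast collagens, cartilage, skin, and the shared head of a pair of basement membrane collagens. None of them overlaps an annotated exon.
Col1a1, plus strand, chr11:94936024-94936223: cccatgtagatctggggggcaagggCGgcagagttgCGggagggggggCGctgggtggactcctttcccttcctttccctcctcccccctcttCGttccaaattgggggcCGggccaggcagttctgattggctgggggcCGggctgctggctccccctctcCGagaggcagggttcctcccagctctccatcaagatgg
Col1a2, plus strand, chr6:4504614-4504813: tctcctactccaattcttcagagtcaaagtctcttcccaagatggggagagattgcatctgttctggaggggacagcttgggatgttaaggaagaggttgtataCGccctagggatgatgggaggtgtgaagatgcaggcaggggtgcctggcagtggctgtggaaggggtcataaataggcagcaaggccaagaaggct
Col2a1, minus strand, chr15:98004696-98004895: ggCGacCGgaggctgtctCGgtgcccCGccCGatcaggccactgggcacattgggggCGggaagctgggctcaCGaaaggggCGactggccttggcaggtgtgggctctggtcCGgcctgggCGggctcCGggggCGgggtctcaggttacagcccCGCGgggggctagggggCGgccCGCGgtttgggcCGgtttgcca
Col17a1, minus strand, chr19:47692095-47692294: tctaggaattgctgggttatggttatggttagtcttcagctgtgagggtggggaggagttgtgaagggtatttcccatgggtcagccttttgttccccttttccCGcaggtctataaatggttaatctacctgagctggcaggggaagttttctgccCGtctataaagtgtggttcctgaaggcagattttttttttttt
Col4a3 and Col4a4, plus strand (the strand of Col4a3), chr1:82586850-82586920: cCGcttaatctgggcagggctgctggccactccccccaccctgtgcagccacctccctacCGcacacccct

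The stretch of Col2a1 had 18 CpG in 200 bases and lay completely within a site. That of Col17a1 had 2 CpG in 200 bases and was also completely within a site, as were the 71 bases between the starts of Col4a3 and Col4a4, which had 2 CpG. Hence sites were called over both CpG-dense and CpG-poor upstream DNA. The Col1a1 stretch had 7 CpG and a site covered 103 of its 200 bases (51.5%). The Col1a2 stretch had 1 CpG and 0% in a site. The outermost start of Col1a2 is that of a long annotated transcript, since the RefSeq start lies 804 bp further downstream, and that of Col17a1 lies 52 bp downstream. The letters CCAAT, searched on both strands in the 200 bases before the outermost start, occurred at 13 of 42 collagen genes (31.0%) and at 31.2% of all genes. In Col1a1 they were found at 99 and at 73 bases before the start, both on the opposite strand. The letters TATAAA, likewise on both strands, occurred at 4 of 42 (9.52%), namely Col3a1, Col10a1, Col14a1 and Col17a1, compared to 9.31% of all genes. Col17a1 had this motif at 88 and at 39 bases before its start. The motif counts of the collagens were thus close to those of all genes.

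A gene was counted as having a site at a start when a site overlapped the window of 1 kb on either side of any annotated transcription start of the gene. This was the case for 24 of 42 collagen genes (57.1%), compared to 31.3% of all autosomal protein-coding genes. A site in a start window or anywhere over the body was present at 31 of 42 (73.8%, all genes 47.8%), and 11 had none (26.2%, all genes 52.2%). At 22 of 42 (52.4%), the site in a start window was at least 1 kb wide, compared to 20.3% of all genes. The collagen genes therefore had sites at starts more frequently than the average gene in this list, and these were mostly wide sites. At least 10% of the gene body was covered in 11 of 42 (26.2%, all genes 21.1%). The median body cover was 1.74% in the collagens, with a range from 0 to 79.4%, and 0 in all genes. Thus the family spans genes without any site and genes with most of the body covered, such as Col26a1 (79.4%) and Col13a1 (66.4%).

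**Figure D1:**
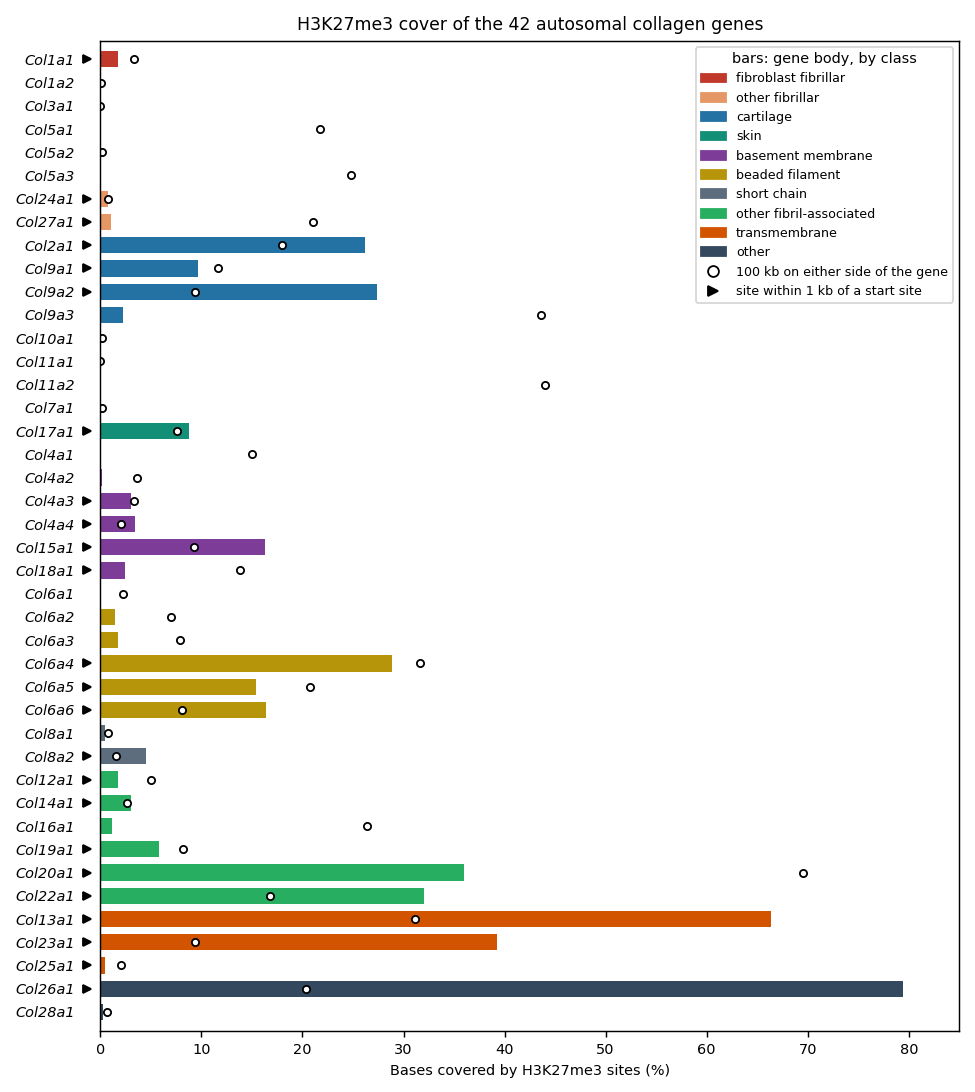
Share of bases covered by H3K27me3 sites (%, horizontal axis) for each of the 42 collagen genes, in 1 list over all samples. Bars are gene bodies coloured by class, open circles the 100 kb on either side, and arrowheads mark the 24 genes with a site within 1 kb of a start. Col26a1 (79.4%) and Col13a1 (66.4%) have the longest bars, while 4 of the 5 fibroblast fibrillar genes have no bar.

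Gene length bears on these counts because a long gene offers more room for sites and often more start sites. The collagens are long, with a median of 111 kb compared to 17.6 kb for all genes. Among genes of 100 to 200 kb, 11 of 18 collagens had a site at a start (61.1%), compared to 39.9% of all genes of this length. Among those over 200 kb, all 6 collagens did, compared to 54.5%. In the bands below, it was 1 of 3 from 50 to 100 kb (33.3%, all genes 32.4%), 4 of 11 from 20 to 50 kb (36.4%, all genes 30.2%) and 2 of 4 up to 20 kb (50.0%, all genes 28.5%). The share of collagens with a site at a start was thus above that of all genes of the same length in the shortest and both longest bands, and close to it between 20 and 100 kb. A site over body or start windows was found at 14 of 18 collagens from 100 to 200 kb (77.8%, all genes 76.5%) and at 6 of 11 from 20 to 50 kb (54.5%, all genes 50.4%). It was found at all 6 over 200 kb (all genes 89.4%), at all 3 from 50 to 100 kb (all genes 62.2%) and at 2 of 4 up to 20 kb (50.0%, all genes 36.4%). Some of these bands hold very few collagens.

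The fibrillar collagens of fibroblasts had few sites. Of the 5 genes, 1 had a site at a start (Col1a1), compared to 31.3% of all genes, and the other 4 had no site in start windows or body, as had 52.2% of all genes. The median body cover of these 5 genes was 0, as it was for all genes, and 0.0765% of their summed length was covered, compared to 6.89% for all genes. Col1a1, encoding the main chain of type I collagen, had a site of 389 bp (chr11:94936121-94936509) over its outermost start and no other site. This site covered 1.70% of the body, which spans chr11:94936224-94953042. Its width was below the median of 460 bp of all autosomal sites. No wide site was therefore present at the start of any of these 5 genes.

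Col1a2, encoding the partner chain of type I collagen (chr6:4504814-4541544), lay in a stretch of 205 kb without a site that holds no other protein-coding gene. Col3a1, the chain of type III collagen found together with type I in skin and vessels (chr1:45311538-45349706), and Col5a2, a chain of type V collagen that sets fibril diameter (chr1:45374321-45503282), are tail-to-tail neighbours 24.6 kb apart. Both lay in the same stretch of 651 kb without a site, and no other protein-coding gene was within it. These 2 genes are consequently not independent observations. Col5a1, the other main chain of type V (chr2:27886425-28039514), lay alone in a stretch of 236 kb without a site. The surroundings differed between these genes. Within 100 kb on either side, 21.7% of the bases were covered for Col5a1, 3.29% for Col1a1, 0.182% for Col5a2, 0.100% for Col1a2 and 0 for Col3a1. Of these 5 genes, the start of Col5a1 was CpG-rich, with an observed to expected CpG ratio of 0.82 in the 1 kb around the outermost start, while the other 4 had ratios from 0.18 to 0.33.

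Of the 3 other fibrillar collagens, 2 had a site at a start, compared to 31.3% of all genes. These 2, Col24a1 (260 kb) and Col27a1 (121 kb), are long. Of all genes, 54.5% of those over 200 kb and 39.9% of those from 100 to 200 kb had one. Col27a1 (chr4:63214004-63334991), a fibrillar collagen known from cartilage, had a site of 5531 bp at its start and no further site, giving a body cover of 1.03%. Col24a1 (chr3:145292472-145552011), known from developing bone, had a site of 1775 bp at its start, which began 53 bp from the nearest annotated start, and 1 more site of 253 bp. Col5a3 (chr9:20770050-20815067), the minor chain of type V, had no site over start windows or body and lay in a stretch of 67.2 kb without a site. The nearest site was 4.57 kb from its start, and 24.8% of its surroundings were covered. Thus, 2 of 3 had a wide site at a start, compared to 20.3% of all genes, but their bodies were otherwise free of wide sites.

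**Figure D2:**
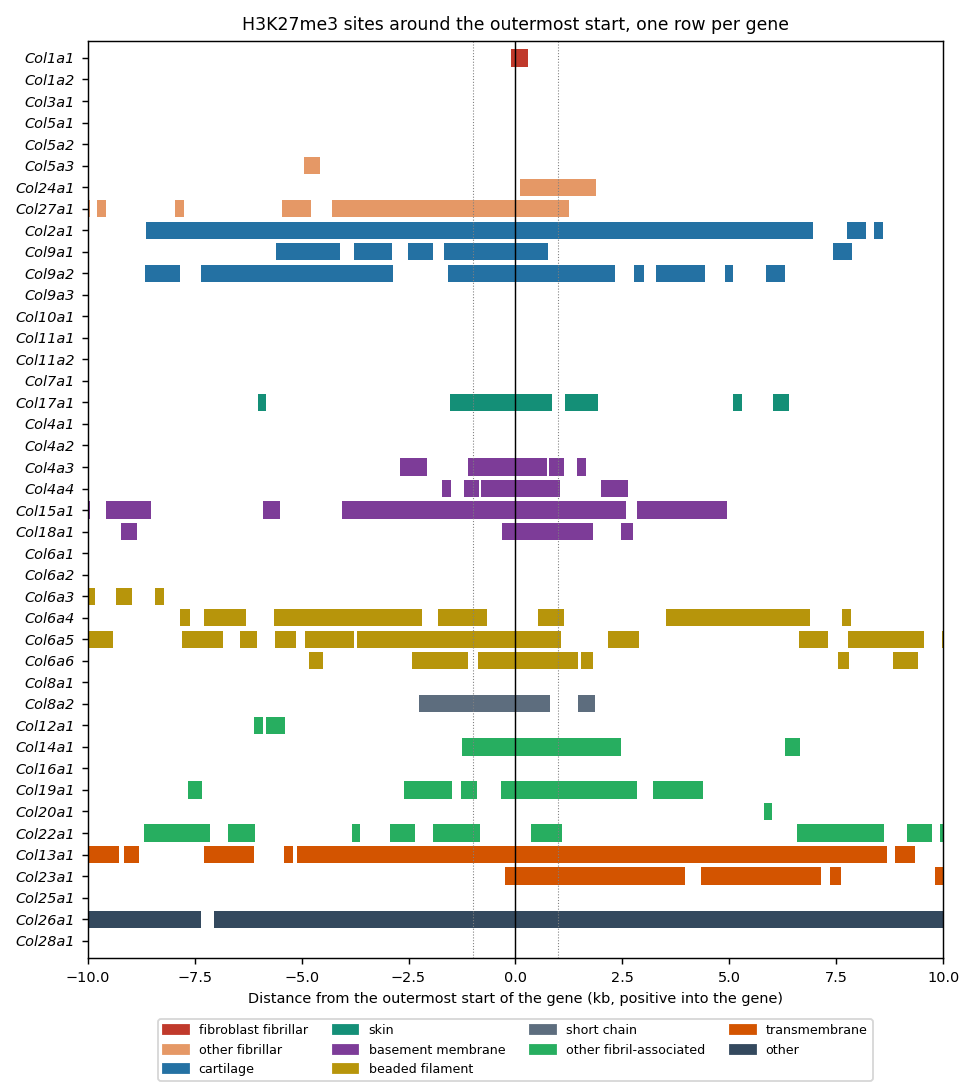
H3K27me3 sites (blocks, to scale, coloured by class) from 10 kb before to 10 kb after the outermost start of each of the 42 collagen genes, with distance in kb on the horizontal axis and positive values inside the gene. Dotted lines mark 1 kb on either side. Among the fibroblast fibrillar genes the 389 bp site of Col1a1 is the single block, whereas the block at Col2a1 is 15578 bp wide.

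The cartilage collagens were split. Sites at a start were called for 3 of 7 (Col2a1, Col9a1 and Col9a2), compared to 31.3% of all genes. Each of these 3 had one of at least 1 kb, compared to 20.3% of all genes. Col9a3 had a single site at its end, and Col10a1, Col11a1 and Col11a2 had none, as had 52.2% of all genes. Col2a1, encoding the main fibrillar chain of cartilage (chr15:97975602-98004695), had a site of 15578 bp (chr15:97997744-98013321) that extended from upstream into the gene and covered 7 of its 9 annotated starts and 8 exons. Together with 2 narrow sites further inside, 26.2% of the body was covered, and 78.7% of the third of the gene next to the start. Col9a1 and Col9a2 encode chains of type IX collagen, which sits on the surface of type II fibrils. Col9a2 (chr4:121039385-121055322) had 5 sites, the widest of 3908 bp at the start, and 27.4% of the body was covered. Col9a1 (chr1:24177610-24252684) had 11 sites, the widest of 2419 bp at the start, and 9.69% was covered. In all 3 genes the widest site was the one over the outermost start. Col9a3 (chr2:180597790-180622189), the remaining chain of type IX, had 1 site of 555 bp in its last part (2.27% of the body), although 43.6% of its surroundings were covered. The 3 chains of type IX therefore differed from each other.

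Col10a1, a marker of hypertrophic chondrocytes (chr10:34389981-34397085), lay in a stretch of 167 kb without a site. Col11a1 and Col11a2 encode chains of type XI collagen, which forms the core of cartilage fibrils. Col11a1 (chr3:114030540-114220718) was the only protein-coding gene in a stretch of 1270 kb without a site, the longest of the stretches around the 11 collagen genes without sites. Col11a2 (chr17:34039437-34066685) was within 58.0 kb without a site that also holds H2-Ke6, Ring1, Rxrb and Slc39a7. This stretch was surrounded by sites, as 44.0% of the bases within 100 kb of Col11a2 were covered. Col11a1 and Col11a2 thus lacked sites in opposite surroundings. Col11a2 also has a copy on an alternate locus of another mouse strain in the assembly, and whether such sequences were used in the alignment is not given in the sources used here.

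The skin collagens differed from each other. Col17a1 (chr19:47646344-47692094), which encodes a transmembrane collagen of hemidesmosomes, had 8 sites over its body. The widest of 2392 bp covered its outermost start, and 8.76% of the body was covered. Col7a1 (chr9:108953586-108984875), the collagen of anchoring fibrils, had no site, and the stretch of 246 kb around it without a site held 8 protein-coding genes including Col7a1. The surroundings within 100 kb were covered by 7.60% for Col17a1 and 0.185% for Col7a1.

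Basement membrane collagens had a site at a start in 4 of 6 genes, compared to 31.3% of all genes. Each of the 4 had one at least 1 kb wide, compared to 20.3% of all genes. These genes are 105 to 138 kb long, and 39.9% of all genes from 100 to 200 kb had a site at a start. The chains fell apart by pair. Col4a1 and Col4a2, which encode the chains found in nearly every basement membrane, are arranged head to head and overlap by 22 bp (chr8:11198423-11312826 and chr8:11312805-11449287). Col4a1 had no site, and Col4a2 had a single site of 200 bp near its end, such that 260 kb over Col4a1 and nearly all of Col4a2 were free of sites. Both starts were CpG-rich, with observed to expected CpG ratios of 0.77 and 0.78. Col4a3 and Col4a4, which encode the chains of specialised basement membranes such as that of the kidney glomerulus, are also arranged head to head, with 71 bp between them (chr1:82586921-82722059 and chr1:82448423-82586849). A site of 1848 bp (chr1:82585811-82587658) covered this gap and 4 annotated starts of the pair, and a further site of 342 bp lay in the start windows of both. Hence the 2 counts for Col4a3 and Col4a4 rest on the same sites. Their bodies had 9 and 12 sites, covering 3.03% and 3.41%.

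Col15a1 (chr4:47208161-47313167) and Col18a1 (chr10:77052178-77166548) encode related collagens of the basement membrane zone. Col15a1 had 25 sites in its body, 5 sites in its start windows, the widest of 6646 bp, and a body cover of 16.3%. Col18a1, from which the fragment endostatin is released, had 4 sites, with one of 2138 bp at the start, and 2.40% was covered. Of the basement membrane collagens, Col15a1 thus had the highest cover.

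The remaining classes included the genes with the highest cover. Of the beaded filament collagens (type VI), the 3 chains that form the common heterotrimer were little covered. Col6a1 (chr10:76708792-76726168) had no site, Col6a2 had 2 (1.42% of the body) and Col6a3 had 4 (1.70%), none of them at a start. The 3 alternative chains, which lie next to each other on chromosome 9, all had sites at starts, compared to 31.3% of all genes. Col6a4 (chr9:105989454-106096783) had 36 sites in its body with a cover of 28.9%, Col6a5 (chr9:105856078-105960643) had 25 with 15.4%, and Col6a6 (chr9:105687809-105828160) had 41 with 16.4%. The DNA between Col6a5 and Col6a4 was covered by 53.2% and that between Col6a6 and Col6a5 by 8.93%. Within 100 kb on either side, 31.6% of the bases were covered for Col6a4, 20.7% for Col6a5 and 8.07% for Col6a6. The median of all genes was 5.67%. Surroundings with many sites were therefore those of Col6a4 and Col6a5, and less so of Col6a6.

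All 3 transmembrane collagens had a wide site at a start, compared to 20.3% of all genes. They are 141, 294 and 468 kb long. A site at a start of any width was found at 39.9% of all genes from 100 to 200 kb and at 54.5% of those over 200 kb. Col13a1 (chr10:61838236-61979108), known from the neuromuscular junction, was covered by 66.4%, with 44 sites in its body and one of 13796 bp over 3 of its 6 annotated starts. Col23a1 (chr11:51289920-51583918) had 101 sites and 39.2% cover, while 9.36% of its surroundings were covered. Col25a1 (chr3:130131501-130599877), which is made by neurons and is the longest collagen gene, had 4 sites and 0.482% cover. Its site of 1433 bp was at an internal start, and none lay within 10 kb of the outermost one. The highest cover of all collagens was that of Col26a1 (chr5:136741759-136883209), known from testis and ovary, with 36 sites and 79.4%. Here, a site of 18172 bp covered 6 of 11 annotated starts, and a site of 24903 bp inside the gene was the widest over any collagen. Of all genes, 94.8% had a lower body cover. In contrast, Col28a1, known from peripheral nerve, had 2 narrow sites (0.235%).

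Among the other fibril-associated collagens, 5 of 6 had a site at a start, compared to 31.3% of all genes. Col22a1 (chr15:71795795-72034227), known from tissue junctions such as those of muscle and tendon, had 71 sites and a cover of 32.0%, with one of 8330 bp at an internal start. Col20a1 (chr2:180986535-181018363) had 8 sites and 36.0%. This value was below that of its surroundings, 69.5% of which were covered. In both genes the widest site in a start window was at an internal start, whereas Col19a1 (chr1:24261890-24587472; 3196 bp) and Col14a1 (chr15:55307750-55520803; 3710 bp) had their widest site over the outermost start. Body cover was 5.78% in Col19a1 and 3.03% in Col14a1, the latter known from tendon and skin. In Col12a1 (chr9:79598991-79718831), a related collagen of tendon and ligament, a site of 200 bp was 509 bp from an internal start and 1.79% of the body was covered. Col16a1, which like Col11a2 has a copy on an alternate locus, had 2 sites in its body (1.14%) and none at a start. Col8a2 (chr4:126286793-126314330) and Col8a1 encode the short-chain collagens of Descemet's membrane in the cornea. Col8a2 had a site of 3081 bp at its start, while Col8a1 had 2 sites of up to 418 bp inside the gene.

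In total, 516 sites touched a collagen gene or its start windows, and 2 of these were shared between members. Their median width of 485 bp was close to the 460 bp of all autosomal sites, as was the share of sites of 200 bp, the smallest width in the list (12.0% compared to 12.4%). Sites of at least 5 kb numbered 20 (3.88%, all autosomal sites 3.45%). Thus the sites over collagen genes did not stand out by their width. They were concentrated in few genes, as 293 were in Col23a1, Col22a1, Col13a1, Col6a6 and Col6a4. The centre was in an intron for 447 sites, in an exon for 58 and outside the body for 11. Of the sites centred in bodies, 11.5% were in exons, which make up 6.88% of the summed length of the collagen genes. The corresponding shares of all genes were not determined, so whether this is particular to collagens cannot be told.

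When gene bodies were split into 3 equal parts, the part next to the start had the most cover in 18 of the 31 collagens with a body site (58.1%), the middle in 4 and the end in 9. The corresponding shares of all genes with a body site were 46.4%, 23.1% and 30.6%. Examples of the first kind are Col2a1 (78.7%, 0 and 0) and Col9a2 (73.7%, 8.38% and 0). In contrast, Col20a1 had 1.89%, 44.6% and 61.5%, and Col13a1 was covered nearly evenly with 70.7%, 59.2% and 69.3%. The family therefore contains genes with sites mainly at the start and genes covered throughout.

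The surroundings of the genes bear on these values. The body cover was above that of the 100 kb on either side in 13 of 42 collagens (31.0%), close to the 26.5% of all genes. Among these 13 were Col2a1, Col9a2, Col17a1, Col15a1, Col6a6, Col22a1, Col23a1, Col13a1 and Col26a1. Across the 42 genes, the Spearman correlation of body and surrounding cover was 0.47, and it was 0.36 across all genes. Genes are not independent replicates, and neighbours share surroundings and sites. Where at least 10% of the surroundings were covered, 10 of 16 collagens had a site at a start (62.5%, all genes 46.8%). Where less was covered, it was 14 of 26 (53.8%, all genes 21.9%).

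CpG content was determined for the 500 bp on either side of the outermost start. CpG-rich starts were those with 50% GC or more whose observed number of CpG reached 0.6 of the expected number. A site was counted at any annotated start, so it need not lie at the start whose CpG content was determined. In Col12a1 (CpG-rich), Col20a1 and Col25a1 (both not CpG-rich), the counted site was at an internal start only. Of the 11 collagens with a CpG-rich outermost start, 8 had a site at any start (72.7%), compared to 24.8% of all genes with such starts. Of the 31 others, 16 did (51.6%), compared to 36.8%. The collagens with a site had a median ratio of 0.47 and those without a site one of 0.40, whereas in all genes the medians were 0.46 with and 0.62 without a site. The direction thus differed between the collagens and all genes, and the ratios of the collagens with and without a site overlapped widely (0.09 to 0.87 and 0.08 to 0.82).

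The list has no expression values, and the cell type can be described merely by the sites at marker genes. The shares of all genes were 31.3% for a site at a start, 20.3% for one of at least 1 kb and 47.8% for a site anywhere. Of 12 fibroblast markers, 4 had a site at a start (33.3%; Pdgfra, Vim, Prrx1 and Lum), close to all genes. None of these was 1 kb or more, the widest being 534 bp at Prrx1, and 5 of the 12 had a site anywhere. In contrast, 6 of 9 chondrocyte markers (Sox5, Sox6, Acan, Comp, Matn1 and Cnmd) had a site at a start (66.7%), each of at least 1 kb. All 9 had a site anywhere. Sox5 (953553 bp) and Sox6 (567925 bp) are long genes with body covers of 1.90% and 0.766%. Of all genes over 200 kb, 54.5% had a site at a start and 89.4% had one anywhere. Acan, encoding the main proteoglycan of cartilage, had a site of 17446 bp and a body cover of 85.1%, and Matn1, a cartilage matrix protein, had 89.0%. Sox9, the master regulator of chondrocytes, had no site at a start and 1 site of 467 bp in its body. Of 9 keratinocyte markers, 4 had a site at a start (44.4%; Krt5, Krt14, Itgb4 and Itga6), 2 of them wide. Krt14, a keratin of basal epidermis, was covered by 87.1%, and all 9 had a site over body or start windows. Of these, Trp63, Lama3 and Dst are also longer than 200 kb.

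Genes that work together with collagens were described in the same way. Of 30 genes for the making, secretion and processing of collagen, 4 had one (13.3%, compared to the 31.3% of all genes given above), and 18 had no site at all, compared to 52.2% of all genes. Among the latter were Serpinh1, encoding the collagen chaperone HSP47, P4ha1 and P4hb of the prolyl 4-hydroxylase, and Lox, which cross-links fibrils. The 4 exceptions were P4ha2 (251 bp), Adamts2 (938 bp), Colgalt2 (4851 bp) and Tll2 (11674 bp). Colgalt2, which adds galactose to hydroxylysine, was covered by 32.8%, while its paralogue Colgalt1 had no site. Tll2, a protease related to Bmp1, was covered by 79.3%, while Bmp1 had none. Of 11 other basement membrane components, 1 had a site at a start (Lama1, 2709 bp), and 8 had no site. Of 10 collagen receptors, 3 did (Itga2, Gp6 and Lair1), a share of 30.0% that is close to that of all genes. Gp6, the collagen receptor of platelets, had a cover of 15.6%, and Ddr1, Itga1, Itga10 and Itgb1 had no site.

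**Figure D3:**
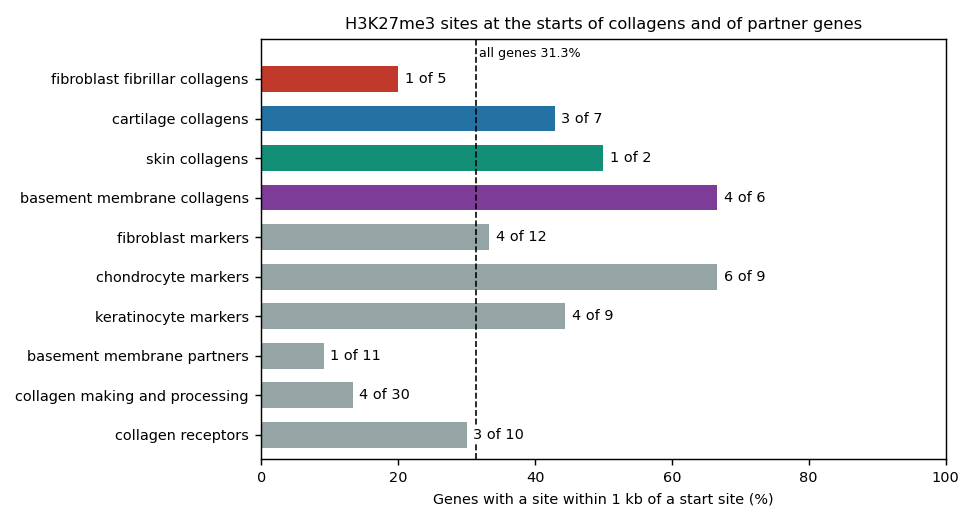
Share of genes with an H3K27me3 site within 1 kb of a start (%, horizontal axis) for the contrasted collagen classes (coloured) and lists of marker and partner genes (grey), with the number of genes beside each bar. The dashed line marks the 31.3% of all autosomal protein-coding genes. Chondrocyte markers (6 of 9) and basement membrane collagens (4 of 6) have the longest bars, and basement membrane partners (1 of 11) the shortest.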

How the data were processed

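The authors prepared chromatin from 14 samples, aligned the reads with BWA to mm10 and called broad peaks with MACS. According to the submitters' processing notes, SAMtools was also used. Versions, the peak threshold and the rule for combining peaks are not given in the sources used here. The deposited list gives chromosome, start and end of the sites across all samples, and 0 columns of values per library were left unassigned. Starts were read as counted from 0 and are printed as counted from 1. Sites were compared with GENCODE M21 (GRCm38), an earlier release than that used by the authors, in Python 3.11.15 with numpy 2.4.6, scipy 1.17.1 and pysam 0.24.0. The functions for overlap and cover were tested on simulated data. The RefSeq starts are those of GRCm38. A pooled list allows no test, hence counts and medians are given beside those of all autosomal protein-coding genes. Body cover is the share of bases from the outermost start to the end of a gene that lie in a site.

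Named genes were all members of the 4 contrasted classes and, of the other classes, the members with a site at a start, those without any site and the 5 with the highest body cover. Col6a2, Col6a3, Col8a1, Col16a1 and Col28a1 fall outside this rule and were added after their values were seen to account for all members. Members and lists were chosen with earlier results of these data known. Alternatives were minimum widths of 500 bp and 1 kb, joining of sites closer than 1 kb or 5 kb, start windows of 500 bp and 2 kb, the outermost start only, and sites covering a start base. The X-linked collagens were not members.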

Additional observations from a re-analysis of the deposited data

Results flagged for a closer look

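The X-linked collagens Col4a5 and Col4a6, which encode further chains of basement membrane type IV collagen, were outside the autosomal comparisons but also carried sites. Col4a5 had 7 sites in its body (0.782% covered) and none at a start. Col4a6, its head-to-head neighbour, had 2 sites, with one of 631 bp at a start (0.267% covered). It also has a copy on a patch of the assembly. The list holds no values of control samples to set beside these counts.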

How the results depend on the processing

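The count of collagens with a site at a start was 24 and ranged from 21 (outermost start only) to 25 (start windows of 2 kb) under the 8 alternatives. The share of all genes under these 2 settings was 25.2% and 37.0%. The count for the fibroblast fibrillar collagens was 0 with sites of at least 500 bp or at least 1 kb, since the site at Col1a1 is narrower, and this is by construction. Median body cover moved by more than 1.5 times in several classes. With sites of at least 500 bp it was 0.858% for all collagens, 2.82% for skin and 1.36% for basement membrane. With sites of at least 1 kb it was 0.426% for all collagens, 0.937% for skin, 0.648% for basement membrane and 0 for cartilage. With sites closer than 1 kb joined it was 7.09% for skin and 4.18% for cartilage, and with sites closer than 5 kb joined it was 3.57% for all collagens, 10.5% for skin, 4.66% for basement membrane and 4.18% for cartilage. The corresponding values without these changes were 1.74%, 4.38%, 2.71% and 2.27%. Body cover of single genes also depended on these settings. It moved by more than 1.5 times in 16 and 21 of 42 genes, downwards, with sites of at least 500 bp and 1 kb, and in 4 and 18, upwards, with sites closer than 1 kb and 5 kb joined. Examples are Col6a5 (15.4% to 45.5%) and Col15a1 (16.3% to 48.9%) with joining within 5 kb, and Col6a6 (16.4% to 6.70%) with sites of at least 1 kb. No paired analysis was possible because no value per library is in the list, and leaving out a replicate was likewise not possible. The list pools 12 libraries of unknown depth, so a site present in few of them cannot be told apart from one present in all.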
